A study of Mus musculus with 12 samples.

Results

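MHC and antigen processing genes were followed across non-tumoral livers and liver tumors of p21+/Tert and p21+/TertCi mice. The members were every symbol in the count files that starts with H2-, which gave 43 symbols, plus B2m, Tap1, Tap2, Tapbp, Psmb8, Psmb9, Psmb10, Cd74, Ciita, Nlrc5, Erap1 and Ctss, so that 55 of 24421 symbols were members. The 12 poly(A) RNA-seq libraries were 6 tumors and the 6 non-tumoral livers of the same 6 aged mice on standard diet. A strain, C57BL/6J N, was stated for wild-type mice but not for these lines. In 4 mice a Cdkn1a (p21) allele drove Tert, and in 2 mice it drove TertCi, a catalytically inactive Tert, so that expression followed the p21 promoter and was not restricted to hepatocytes. No wild-type liver entered a comparison. The driver class of each tumor was taken from the exome data described by the study and joined by mouse number. T-HCC662 and T-HCC663 carried a mutation in Ctnnb1, which encodes β-catenin. T-HCC941 carried a mutation in Egfr, a receptor tyrosine kinase, and TCi-HCC981 in Hras, a GTPase of the MAPK pathway. T-HCA992 and TCi-HCA984 had no mutation in these genes. The letter T before the hyphen marks a p21+/Tert and TCi a p21+/TertCi mouse, each mouse and its liver are named by its tumor, and 6 values per group are given in the order T-HCC662, T-HCC663, T-HCC941, TCi-HCC981, T-HCA992, TCi-HCA984. HCC in a tumor name stands for hepatocellular carcinoma and HCA for adenoma, and the study's histology lists T-HCC663 as an adenoma despite its name. Each driver class held 2 tumors, both Ctnnb1-mutated tumors came from p21+/Tert mice, and the other 4 tumors were split between the genotypes.

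MHC class I molecules pair a heavy chain with β2-microglobulin (B2m) and display peptides from the cytosol to CD8 T cells on nearly every nucleated cell. Those peptides are cut by the proteasome, whose immune forms hold Psmb8, Psmb9 and Psmb10, carried into the endoplasmic reticulum by the Tap1-Tap2 transporter, trimmed by Erap1 and loaded with the help of Tapbp. Class II molecules, made mainly by dendritic cells, B cells and macrophages, display peptides from endosomes to CD4 T cells. Their chains assemble on the invariant chain Cd74, which cathepsin S (Ctss) degrades, and H2-DM then exchanges the remaining fragment for peptide. Nlrc5 and Ciita are the transactivators of the class I and class II genes. Normal hepatocytes carry class I and little class II, and secrete the class Ib molecule H2-Q10.

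By role the members were 3 classical class I heavy chains (H2-K1, H2-D1 and H2-L), 28 class Ib symbols, B2m, 7 class I processing genes, Nlrc5, 5 classical and 5 nonclassical class II chains, 2 class II processing genes and Ciita. The other 2 H2- symbols encode no presenting molecule: H2-K2 is annotated as a transcribed pseudogene, and H2-Ke6 is an older symbol of the hydroxysteroid dehydrogenase Hsd17b8. Among the class Ib symbols, H2-Q5, H2-Bl and H2-T10 are annotated as polymorphic pseudogenes. Most members lie in the MHC on chromosome 17. For example, H2-K1 spans chr17:33996017-34000347 in mm10, H2-Aa chr17:34282744-34287823, H2-D1 chr17:35262730-35267499, H2-Q1 chr17:35320405-35325099 and H2-Q2 chr17:35342242-35346762 (gene models of GENCODE M21). Counts were identical in all 12 libraries for H2-Q6 and H2-Q8, for H2-Q7 and H2-Q9, and for H2-T22 and H2-T9, which left 52 members with distinct counts. Many class I genes are close copies. In the reference transcripts, H2-Q1 shared a stretch of at least 300 bases at 95% identity or more with 7 other genes, among them H2-K1, H2-D1 and H2-Q2, and H2-Q6 with H2-Q7. How reads that match several copies were counted, and whether counting used strand, is not given in the sources used here, so the split of counts among such genes is uncertain. The same holds for H2-L, a gene that C57BL/6 mice lack: its counts stood at 0.431 to 0.712 of those of H2-D1 in every library.

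The promoters of 6 members are shown as the 180 bases before the RefSeq start (GRCm38.p6, 5′ to 3′ on the gene's strand). They comprise the main class I heavy chains of liver, the class Ib gene H2-Q2 and the class II chains H2-Aa and H2-Eb1. Capitals mark, on either strand, the letters ATTGG (Y box), TGACG (part of the X2 box), CTAGNAAC (core of the X1 box), GGGATTCCC (NF-kB), GAAANNGAA (interferon response) and CTTTGAT (TCF/LEF, the factors that β-catenin joins).
H2-K1 (chr17:34000348-34000527, minus strand): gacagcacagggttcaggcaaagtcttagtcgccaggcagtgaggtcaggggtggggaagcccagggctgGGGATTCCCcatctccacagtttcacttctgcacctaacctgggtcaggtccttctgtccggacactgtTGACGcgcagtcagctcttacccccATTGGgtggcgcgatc
H2-D1 (chr17:35262914-35263093, plus strand): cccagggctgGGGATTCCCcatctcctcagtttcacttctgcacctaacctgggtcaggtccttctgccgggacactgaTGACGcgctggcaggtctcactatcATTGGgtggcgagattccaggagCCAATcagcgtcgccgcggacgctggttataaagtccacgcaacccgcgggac
H2-Q10 (chr17:35469909-35470088, plus strand): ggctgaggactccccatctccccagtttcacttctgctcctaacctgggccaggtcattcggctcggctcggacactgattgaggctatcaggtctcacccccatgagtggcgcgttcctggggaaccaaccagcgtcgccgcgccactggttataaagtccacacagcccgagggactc
H2-Q2 (chr17:35342127-35342306, plus strand): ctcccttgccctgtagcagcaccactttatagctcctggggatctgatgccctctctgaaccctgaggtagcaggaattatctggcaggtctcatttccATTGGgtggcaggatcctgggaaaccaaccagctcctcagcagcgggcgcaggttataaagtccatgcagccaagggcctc
H2-Aa (chr17:34287824-34288003, minus strand): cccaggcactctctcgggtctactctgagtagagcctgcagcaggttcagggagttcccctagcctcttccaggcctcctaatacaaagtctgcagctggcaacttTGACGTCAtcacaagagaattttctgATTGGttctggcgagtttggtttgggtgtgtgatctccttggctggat
H2-Eb1 (chr17:34305687-34305866, plus strand): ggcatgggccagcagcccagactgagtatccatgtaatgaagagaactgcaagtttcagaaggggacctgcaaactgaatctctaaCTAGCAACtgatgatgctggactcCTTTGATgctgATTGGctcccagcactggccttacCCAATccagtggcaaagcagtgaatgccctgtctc

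A RefSeq window of 250 bases before to 50 after the start was available for 39 of the 55 members, and H2-Q1 was not among them. The Y box letters were in 31 of these 39 windows and in 37.4% of all 32851 RefSeq windows. H2-K1 had a further Y box match on the other strand just after the start, outside the stretch shown. NF-kB letters were in the windows of 4 members, H2-K1, H2-D1, H2-Q6 and H2-Q7, and in 0.353% of all windows. H2-Q10 and H2-Q2 lacked them, and the stretch shown for H2-Q10 held none of the letters searched. The X1 letters were in 5 member windows, among them those of the class II genes H2-Eb1, H2-DMb1 and H2-Ob, against 3.62% of all windows. The TGACG letters were in 15 member windows and in 20.8% of all windows. Interferon response letters were in 5 member windows, among them those of B2m, Erap1 and Ctss, against 8.56% of all windows. Only the spelling GAAANNGAA was searched on either strand. It cannot match the similar letters tttcacttc, which stand in the stretches shown for H2-K1, H2-D1 and H2-Q10. The absence of a match therefore does not show that these promoters lack an interferon response element. TCF/LEF letters were in 3 member windows, that of H2-Eb1 included, against 3.73% of all windows. A match is a description of letters and overlaps between motifs were allowed. RefSeq and GENCODE starts differ for some genes: the stretch shown for H2-D1 lies inside its GENCODE span given above, and that for H2-Q2 partly so.

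Counted reads ranged from 14571716 to 26170661 per library. Levels are given as CPM, counts per 1000000 counted reads, with library sizes scaled by edgeR's TMM method. Libraries were of liver: the summed level of 5 hepatocyte markers (Alb, Ttr, Apoa1, Cps1 and Hnf4a) was 24760 to 48090 CPM in livers and 15020 to 91860 CPM in tumors. Both libraries of the TCi-HCC981 mouse stood apart for many members. Its liver gave the highest class II level of the 6 livers and its tumor the highest of the 6 tumors, and 8 macrophage markers summed to 1374 CPM in its liver, against 125 to 288 CPM in the other livers. Of the 12 libraries, 1 p21+/Tert liver has a number in its title that no tumor carries, while its file header names the T-HCC662 mouse, and it was taken as the liver of that mouse.

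The heavy chains H2-K1, H2-D1 and H2-Q10 and the light chain B2m stood highest per length among the members described here, and no difference between tumors and livers larger than the spread between mice was found for these 4 genes. Per kilobase of exon, B2m stood at 2473 ± 1166 CPM in livers (SD, n = 6), H2-Q10 at 860 ± 241, H2-K1 at 857 ± 295 and H2-D1 at 452 ± 173. H2-Q10 and H2-K1 did not differ beyond their spread, and B2m stood above both in mean. In tumors the corresponding values were 2206 ± 753, 667 ± 240, 751 ± 142 and 442 ± 107 CPM per kilobase (SD, n = 6). The class Ib gene H2-T23, which encodes the Qa-1 ligand of inhibitory NK receptors, was lower, at 105 ± 32.0 CPM per kilobase in livers and 118 ± 49.6 in tumors.

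H2-K1 ranged from 1396 through a median of 2352 to 4032 CPM in livers and from 1788 through 2093 to 2710 CPM in tumors. H2-D1 ranged from 797 through 1090 to 2038 CPM in livers and from 816 through 1093 to 1643 CPM in tumors. B2m ranged from 1524 through 1769 to 4137 CPM in livers and from 1191 through 1689 to 2919 CPM in tumors. For all 3 genes the groups overlapped almost entirely, the liver of TCi-HCC981 was the highest library, and the tumor stood above its own liver in 2, 3 and 1 of 6 mice. The log2 fold changes, tumor over liver, were -0.20 for H2-K1, -0.04 for H2-D1 and -0.17 for B2m, with SE of 0.28, 0.28 and 0.33 and edgeR adjusted p of 0.7, 0.941 and 0.791. Without both TCi-HCC981 libraries the H2-D1 value was 0.06.

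H2-Q10 stood at 4427, 4203, 4822, 2722, 4102 and 2171 CPM in the livers in the order of mice given above, and both p21+/TertCi livers were the lowest. The matching tumors stood at 4018, 1260, 3852, 2711, 3295 and 2273 CPM. T-HCC663 was the lowest library, at 0.300 of its own liver, and the other 5 tumors lay at 0.799 to 1.05 of theirs. The log2 fold change over all 6 pairs was -0.37 (SE 0.34, edgeR adjusted p = 0.523). The ratio of H2-Q10 to H2-K1 ran from 0.675 in the liver of TCi-HCC981 to 1.90 in livers, and from 0.671 in T-HCC663 to 1.84 in tumors. Summed over the class I heavy chains, livers stood at 8822 ± 1773 CPM and tumors at 7987 ± 1733 CPM (SD, n = 6).

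**Figure D1:**
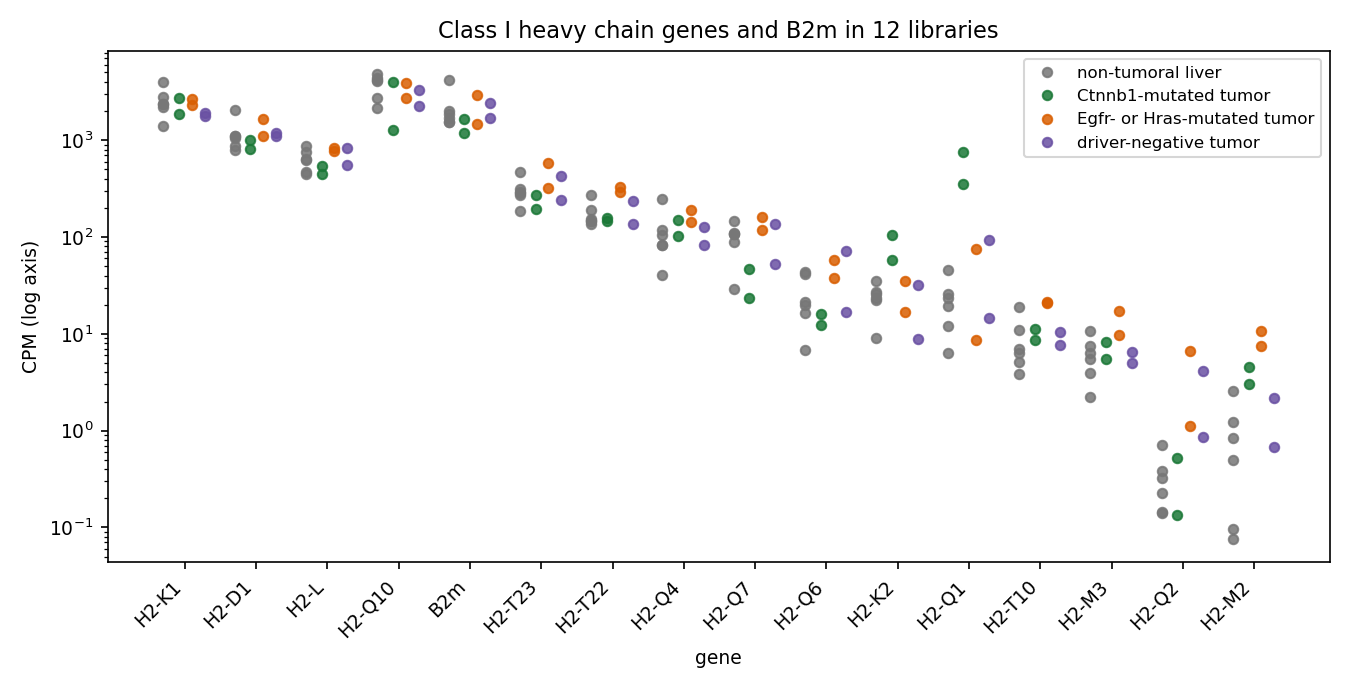
Levels of 14 class I heavy chain genes, the pseudogene H2-K2 and B2m in CPM on a log axis, with a point per library for livers (gray) and for tumors colored by driver class. Of the heavy chain genes shown, H2-T10 is annotated as a polymorphic pseudogene. Livers and tumors overlap for H2-K1, H2-D1, H2-Q10 and B2m, T-HCC663 is lowest for H2-Q10 at 1260 CPM, and both Ctnnb1-mutated tumors lie above all other libraries for H2-Q1.

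Tumors as a whole were then compared with livers by edgeR's quasi-likelihood test with Benjamini-Hochberg adjustment over 13822 genes, among them 40 members. The 15 other members were too low to be tested, and 8 of them, all H2-M genes, had no count in any library. H2-Q1 and H2-Q2 rose and no member fell at an adjusted p under 0.05. Of all genes tested, 6.77% rose and 3.91% fell, so the share of members called was no higher than the background. Among the 40 members, 31 had a positive log2 fold change, with a median of 0.34 against 0.01 for all genes tested.

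H2-Q1 is a class Ib heavy chain gene next to H2-D1. It stood at 6.36, 45.6, 19.2, 23.5, 25.6 and 11.9 CPM in the livers, in the order of mice given above. The Ctnnb1-mutated tumors T-HCC662 and T-HCC663 stood at 759 and 356 CPM, and T-HCC941, TCi-HCC981, T-HCA992 and TCi-HCA984 at 74.4, 8.58, 92.5 and 14.6 CPM. Both Ctnnb1-mutated tumors lay far above all other libraries, T-HCC941 and T-HCA992 lay above every liver, and both p21+/TertCi tumors lay within the liver range. Against its own liver, T-HCC662 was 119-fold higher, T-HCC663 7.81-fold, T-HCC941 3.88-fold, T-HCA992 3.61-fold and TCi-HCA984 1.23-fold, while TCi-HCC981 stood at 0.365 of its liver. Over all 6 tumors the log2 fold change was 3.29 (SE 0.95, edgeR adjusted p = 0.0419). The call held without TCi-HCC981 or TCi-HCA984 and was lost when any of the other 10 libraries was left out, with log2 values of 2.30 to 3.63 and adjusted p of 0.0549 to 0.0924. The lowest log2 value, 2.30, came without T-HCC662.

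H2-Q2, another class Ib gene of the Qa region, was low, with 2 to 17 counts per liver and 3 to 122 per tumor. Livers stood at 0.141, 0.387, 0.228, 0.714, 0.322 and 0.145 CPM in the same order of mice. T-HCC941 and T-HCA992 stood at 6.59 and 4.16 CPM, TCi-HCC981 and TCi-HCA984 at 1.13 and 0.852 CPM, and T-HCC662 and T-HCC663 at 0.135 and 0.526 CPM. The 4 tumors without a Ctnnb1 mutation all lay above every liver, while both Ctnnb1-mutated tumors lay within or below the liver range. Over all 6 tumors the log2 fold change was 2.73 (SE 0.82, edgeR adjusted p = 0.0492), and the call held without the liver of TCi-HCC981, T-HCC662, T-HCC663 or TCi-HCA984. Without any of the other 8 libraries the log2 value was 2.04 to 2.86 with an adjusted p of 0.0604 to 0.127.

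Between driver classes the test of the difference itself called 3 members, H2-Q1, H2-K2 and H2-Ke6, all higher in Ctnnb1-mutated tumors. The fit used all 12 libraries and 15182 genes, among them 43 members. It had no genotype term, while both Ctnnb1-mutated tumors were p21+/Tert tumors and the others were split between the genotypes. Among the others, H2-Q1 and H2-K2 were higher in both p21+/Tert than in both p21+/TertCi tumors, and the part of genotype in these differences was not tested. Of all genes tested, 6.76% were higher and 5.72% lower in Ctnnb1-mutated than in other tumors. The log2 difference was 3.56 for H2-Q1 (SE 0.87, edgeR adjusted p = 0.0238). Without T-HCC662 the H2-Q1 difference was 2.90 and its adjusted p 0.138, and without TCi-HCC981 or TCi-HCA984 the adjusted p was 0.058 and 0.0596. Of the 43 members, 8 had a positive difference, with a median of -0.50 against -0.00 for all genes tested. Below the threshold were H2-Q2 with a log2 difference of -3.22 and an edgeR adjusted p of 0.0649, H2-Q7 with -1.71 and 0.0693, H2-Bl with -1.91 and 0.0715, and Tap2 with -1.11 and 0.0889. Some signs changed with the mouse as a block, described below. Cd74, Ciita and Ctss moved from -0.27, -0.93 and -0.61 to 0.65, 0.41 and 0.49. Tap1 moved from -0.82 to -0.06, and B2m, Tap2, Psmb8, Psmb9, Nlrc5 and Erap1 also stayed negative. None of these genes passed the threshold in either fit.

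H2-K2, the transcribed pseudogene at chr17:33974659-33978827, stood at 104 and 58.5 CPM in T-HCC662 and T-HCC663 and at 35.5, 16.9, 31.8 and 8.92 CPM in T-HCC941, TCi-HCC981, T-HCA992 and TCi-HCA984. Livers ranged from 9.06 through a median of 24.4 to 35.4 CPM. Both Ctnnb1-mutated tumors lay above every other library. The log2 difference from the other tumors was 1.81 (SE 0.52, edgeR adjusted p = 0.0417). Without T-HCC662 it was 1.32 with an adjusted p of 0.268, and without TCi-HCC981 it was 1.59 with an adjusted p of 0.115. The call was also lost without T-HCC663, TCi-HCA984 or the livers of T-HCC662, T-HCC941 or T-HCA992, with adjusted p of 0.0542 to 0.0839.

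H2-Ke6 at chr17:34026033-34028060, the dehydrogenase gene, stood at 139, 140, 145, 103, 116 and 96.9 CPM in the livers. T-HCC662 and T-HCC663 stood at 111 and 117 CPM, and T-HCC941, TCi-HCC981, T-HCA992 and TCi-HCA984 at 84.6, 57.1, 48.0 and 57.9 CPM. The Ctnnb1-mutated tumors lay within the liver range and the other 4 tumors below it, and each of the 6 tumors stood below its own liver. The log2 difference between Ctnnb1-mutated and other tumors was 0.89 (SE 0.23, edgeR adjusted p = 0.0288), with an adjusted p of 0.119, 0.118, 0.0772 and 0.0809 without T-HCC662, T-HCC663, T-HCA992 and TCi-HCC981.

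The Ctnnb1-mutated tumors, and the other 4 tumors together, were also set against the livers, which both comparisons share. In Ctnnb1-mutated tumors H2-Q1 and H2-K2 rose and no member fell, where 5% of all genes rose and 3.2% fell. The log2 fold change of H2-Q1 was 4.64 (SE 0.77, edgeR adjusted p = 0.00461) and held whichever library was left out, with log2 values of 3.99 to 5.10. That of H2-K2 was 1.75 (SE 0.47, edgeR adjusted p = 0.0414), and without T-HCC662 it was 1.27 with an adjusted p of 0.301. It was also lost, at adjusted p of 0.0574 to 0.0761, without T-HCC663 or the livers of T-HCC662, T-HCC941, TCi-HCC981 or T-HCA992. Of 43 members tested, 12 had a positive fold change, with a median of -0.22 against -0.03 for all genes. The livers of this fit included that of TCi-HCC981. With the mouse as a block, Tap1, Ciita and Ctss moved from -0.12, -0.13 and -0.01 to 0.52, 1.44 and 1.26. Cd74 moved from 0.58 to 2.31. Psmb8, Psmb9 and Erap1 also turned positive, while B2m, Tap2 and Nlrc5 stayed negative. None of these genes passed the threshold with the block.

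In the other 4 tumors H2-Q2 rose and H2-Ke6 fell, where 11.3% of all genes rose and 11.5% fell. The log2 fold change of H2-Q2 was 3.20 (SE 0.69, edgeR adjusted p = 0.00707), with 2.43 and an adjusted p of 0.0526 without T-HCA992. That of H2-Ke6 was -1.02 (SE 0.18, edgeR adjusted p = 0.00246) and held whichever library was left out. Of 43 members tested, 33 had a positive fold change, with a median of 0.39 against -0.03 for all genes.

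**Figure D2:**
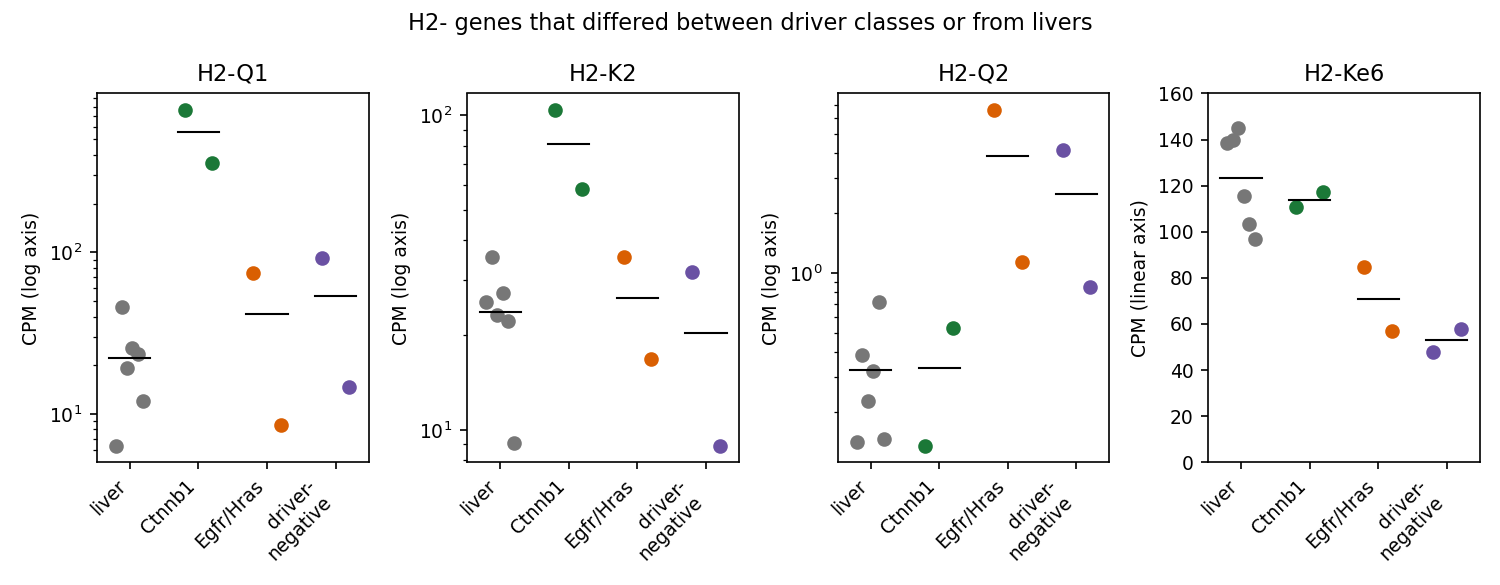
Levels of H2-Q1, H2-Q2, H2-K2 and H2-Ke6 in CPM by library for livers, Ctnnb1-mutated, Egfr- or Hras-mutated and driver-negative tumors, on log axes except H2-Ke6, which has a linear axis from 0, with a point per library and a black line at each group's mean. H2-Q1 and H2-K2 are highest in T-HCC662 and T-HCC663, at 759 and 356 CPM for H2-Q1, whereas H2-Q2 is highest in T-HCC941 at 6.59 CPM.

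Egfr- or Hras-mutated tumors were compared with driver-negative tumors in the same fit. Both Egfr- or Hras-mutated tumors were carcinomas and both driver-negative tumors adenomas, so driver class and histology cannot be told apart here. The study also reported a MAPK activation signature in the driver-negative T-HCA992. No member was called, 0% of all genes tested passed, and 1 of 43 members, H2-M2, had an unadjusted p under 0.05, as did 8.77% of all genes. DESeq2 called no member either, where 0.356% of all genes were higher and 0.336% lower. Of the 43 members, 42 were higher in the Egfr- or Hras-mutated tumors, with a median log2 difference of 0.71 against -0.04 for all genes tested. The exception was H2-Q1, with a log2 difference of -0.40. TCi-HCC981 was a member of the Egfr- or Hras-mutated class, and with the mouse as a block 16 of the 43 members were higher, with a median of -0.19. The driver-class sums of the 10 class II chains were 460 and 1126 CPM in T-HCC941 and TCi-HCC981 and 247 and 137 CPM in T-HCA992 and TCi-HCA984.

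No class Ib gene other than H2-Q1 passed edgeR's test between driver classes, but H2-Q7 and H2-Q6 lay lower in both Ctnnb1-mutated tumors than in each of the others. H2-Q7, which codes for a Qa-2 antigen, stood at 23.6 and 46.4 CPM in T-HCC662 and T-HCC663, at 117, 160, 135 and 52.8 CPM in T-HCC941, TCi-HCC981, T-HCA992 and TCi-HCA984, and at 29.2 to 146 CPM in livers. H2-Q6 stood at 12.4 and 16.0 CPM in the Ctnnb1-mutated tumors, at 37.7, 57.7, 71.4 and 16.8 CPM in the others, in the same order, and at 6.78 to 43.8 CPM in livers. For both genes the Ctnnb1-mutated tumors lay within or below the range of the livers.

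H2-M2, a class Ib gene of the telomeric end of the MHC, ranged from 0.0758 through a median of 0.667 to 2.58 CPM in livers and from 0.682 through 3.79 to 10.7 CPM in tumors. It was higher in the tumor in 5 of 6 mice, with a log2 fold change of 2.41 (SE 0.78, edgeR adjusted p = 0.0667). H2-T23 ranged from 185 to 468 CPM in livers and from 193 to 584 CPM in tumors, H2-T22 from 137 to 269 and from 135 to 325 CPM, and H2-Q4 from 40.4 to 247 and from 83.4 to 188 CPM. Livers and tumors overlapped for all 3.

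Since tumor and liver came from the same mouse, the comparison was repeated with the mouse as a block, which removes what a tumor shares with its own liver. Under the block 8 members rose and 1 fell, where 8.64% of all genes tested rose and 7.29% fell. The genes that rose were the class II genes H2-Aa, H2-DMa and H2-DMb1, the class II processing genes Cd74 and Ctss, the class I processing genes Tap1 and Psmb8, and the class Ib gene H2-T10, and the gene that fell was H2-Ke6. H2-Q1 and H2-Q2 missed the threshold under the block, with log2 fold changes of 1.88 and 2.12 and edgeR adjusted p of 0.214 and 0.0809. H2-Ke6 had a log2 fold change of -0.71 under the block (SE 0.16, edgeR adjusted p = 0.0218), with -0.68 and an adjusted p of 0.0613 without both TCi-HCC981 libraries. H2-T10, annotated as a polymorphic pseudogene, shares near-identical sequence with H2-T22, so its counts may include reads of such copies. H2-T10 ranged from 3.83 through 6.63 to 19.0 CPM in livers and from 7.67 through 10.8 to 21.5 CPM in tumors. It was higher in the tumor in 6 of 6 mice, with a log2 fold change of 0.70 under the block (edgeR adjusted p = 0.0355).

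Class II levels varied widely between mice, and several class II genes rose in tumors with the mouse as a block. H2-Aa, an α chain of I-A, stood at 17.1, 45.1, 20.9, 383, 68.7 and 5.72 CPM in the livers. Their tumors stood at 99.6, 121, 152, 394, 84.9 and 48.0 CPM. Each tumor stood above its own liver, from 1.03-fold in TCi-HCC981 and 1.24-fold in T-HCA992 to 8.40-fold in TCi-HCA984, while the groups overlapped. The log2 fold change of H2-Aa was 0.73 (SE 0.85, edgeR adjusted p = 0.634) without the block and 1.70 (SE 0.46, edgeR adjusted p = 0.0426) with it. Without the liver of TCi-HCC981 it was 2.25 even without the block, with an adjusted p of 0.0428, and without both TCi-HCC981 libraries it was 1.68 with an adjusted p of 0.0859, or 2.05 and 0.0306 with the block.

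Cd74, the invariant chain, ranged from 17.3 through a median of 76.0 to 823 CPM in livers and from 118 through 304 to 913 CPM in tumors. The tumor was higher in all 6 mice, by a median of 4.97-fold, with a log2 fold change of 0.95 (SE 0.82, edgeR adjusted p = 0.503) without the block and 1.91 (SE 0.47, edgeR adjusted p = 0.0307) with it. The β chains H2-Ab1 and H2-Eb1 were higher in the tumor in 5 of 6 mice each, TCi-HCC981 being the exception, by medians of 4.25-fold and 4.75-fold. With the block their log2 fold changes were 1.58 and 1.77 and their edgeR adjusted p 0.055 and 0.051, and without both TCi-HCC981 libraries they were 1.94 and 2.15 with adjusted p of 0.0337 and 0.0364. The CPM of H2-Aa stood at 0.330 to 0.495 of that of Cd74 in livers and at 0.305 to 0.431 in tumors.

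The peptide exchange chains H2-DMa and H2-DMb1 ranged from 1.94 to 49.4 and from 1.26 to 30.5 CPM in livers, and from 5.22 to 44.9 and from 3.92 to 35.1 CPM in tumors. The tumor was higher in 5 and 6 of 6 mice, with log2 fold changes under the block of 1.07 and 1.52 (edgeR adjusted p = 0.0478 and 0.0249). Ctss, the protease that degrades the invariant chain, ranged from 7.77 through 22.2 to 138 CPM in livers and from 22.98 through 40.5 to 181 CPM in tumors, was higher in the tumor in 6 of 6 mice, and rose under the block with a log2 fold change of 0.94 (SE 0.19, edgeR adjusted p = 0.0163). Ciita, the class II transactivator, was higher in 6 of 6 tumors than in their livers by a median of 2.93-fold, with a log2 fold change under the block of 1.203 (edgeR adjusted p = 0.0577). H2-Ob, a chain of the DM inhibitor H2-DO, had a log2 fold change of -0.70 without the block (edgeR adjusted p = 0.581). H2-Ea-ps, the symbol of the I-E α chain that C57BL/6 mice do not express, had 1 count in T-HCC662 and none in the other libraries.

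**Figure D3:**
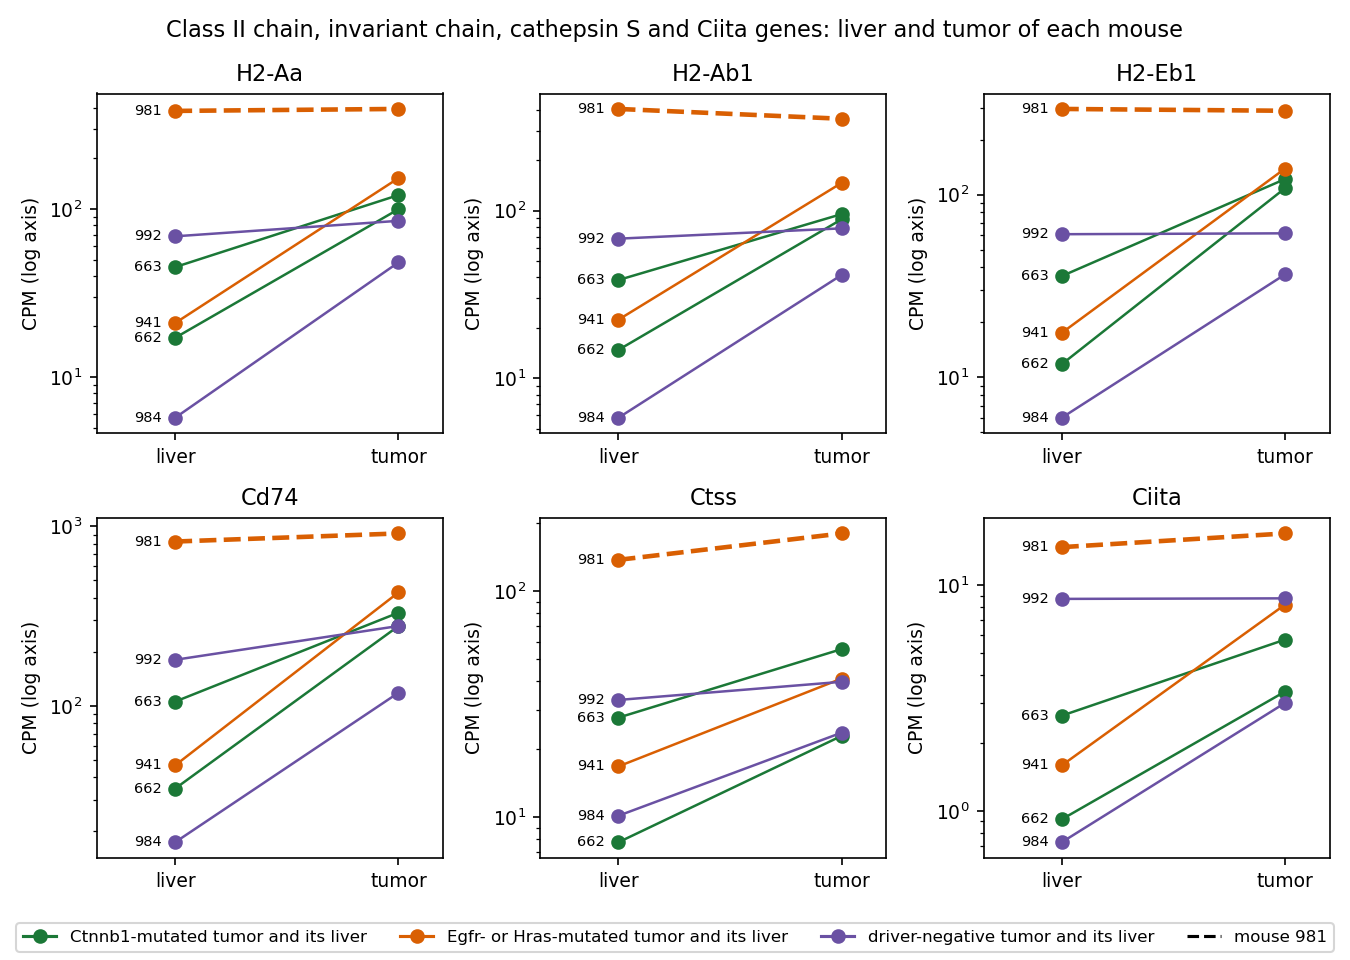
Levels of class II and related genes in CPM on log axes, with a line from the liver to the tumor of each mouse, marked by the number in its tumor's name, colored by driver class and dashed for the TCi-HCC981 mouse. H2-Aa and Cd74 lie higher in the tumor in 6 of 6 mice, and both TCi-HCC981 libraries lie above the others at 383 and 394 CPM for H2-Aa.

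In bulk tissue, fewer cells of a type and less RNA per cell cannot be told apart. Markers of cells that make class II moved with these genes in part. The 7 dendritic cell markers summed to 6.22 to 39.5 CPM in livers and 14.2 to 56.6 CPM in tumors, and their sum was higher in the tumor in 6 of 6 mice. Of these 7 markers, only Itgax, which other myeloid cells also express, was higher in 6 of 6 mice, by a median of 5.06-fold. Itgax made up 9.51 of the summed 14.2 CPM in T-HCC662 and 1.41 of 8.12 CPM in its liver. Flt3, Xcr1 and Zbtb46 were higher in 4 of 6 mice each and Clec9a in 2 of 6. Among mice with a count in the liver, Siglech was higher in 4 of 4 and Cd209a in 1 of 3. The leukocyte gene Ptprc ran from 4.66 to 45.2 CPM in livers and from 11.0 to 62.8 CPM in tumors and was higher in the tumor in 5 of 6 mice. The 8 macrophage and Kupffer cell markers summed to 125 to 1374 CPM in livers and 80.2 to 957 CPM in tumors, and their sum was higher in the tumor in 1 of 6 mice, with a median ratio of 0.632. Of these 8 markers, Cd68, Adgre1 and Csf1r were higher in the tumor in 6, 5 and 4 of 6 mice. Their median ratios were 2.50, 1.91 and 1.34. Clec4f, Vsig4, Marco, Cd5l and Timd4 were higher in 1 of 6 mice each. Marco, a Kupffer cell receptor, was at 0 in T-HCC662. The 5 B cell markers summed to 0.776 to 42.2 CPM in livers and 1.48 to 17.8 CPM in tumors, and were higher in the tumor in 2 of 6 mice, with a median ratio of 0.838. H2-Aa per Ptprc ran from 1.08 to 8.47 in livers and from 3.12 to 7.72 in tumors. The part of these cells in the class II differences was not tested.

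Of the 7 class I processing genes, Tap1 and Psmb8 rose with the mouse as a block and the other 5 did not pass the test. Summed over the 7 genes, the tumor exceeded its liver in 6 of 6 mice, at 560, 582, 755, 888, 576 and 364 CPM in the tumors against 378, 399, 590, 856, 381 and 285 CPM in the livers. Tap1, a subunit of the transporter at chr17:34187553-34197225, stood at 35.5, 41.2, 64.7, 132, 53.0 and 34.99 CPM in these livers and at 47.2, 65.6, 105, 161, 95.2 and 51.6 CPM in the tumors. The groups overlapped and every tumor stood above its own liver, by 1.22-fold to 1.80-fold. The log2 fold change was 0.53 (SE 0.38, edgeR adjusted p = 0.408) without the block and 0.57 (SE 0.12, edgeR adjusted p = 0.018) with it.

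Psmb8, the immunoproteasome subunit encoded beside Tap1 at chr17:34197721-34201454, ranged from 20.6 through 42.5 to 120 CPM in livers and from 33.8 through 66.2 to 141 CPM in tumors. It was higher in the tumor in 6 of 6 mice, with a log2 fold change of 0.53 under the block (edgeR adjusted p = 0.032) and of 0.49 without it (0.509). Psmb9 was higher in 5 and Psmb10 in 4 of 6 mice, with log2 fold changes under the block of 0.33 and 0.05 and edgeR adjusted p of 0.194 and 0.902. Without the block the Psmb10 value was -0.03. Psmb8 counts stood at 0.309 to 2.02 of those of Psmb5, its constitutive counterpart, in livers and at 0.477 to 2.44 in tumors.

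Tap2 ranged from 34.4 to 75.0 CPM in livers and from 34.2 to 115 CPM in tumors and was higher in 5 of 6 mice. Its level was 43.2 and 34.2 CPM in T-HCC662 and T-HCC663 and 115, 102, 92.1 and 35.7 CPM in T-HCC941, TCi-HCC981, T-HCA992 and TCi-HCA984. Tapbp ranged from 107 to 262 CPM in livers and from 129 to 264 CPM in tumors. Erap1 stood at 43.7 to 58.7 CPM in livers and 39.4 to 87.1 CPM in tumors, and Nlrc5 at 37.1 to 97.0 and 36.8 to 83.6 CPM. Under the block the log2 fold changes of Tap2, Tapbp, Erap1 and Nlrc5 were 0.36, 0.45, 0.17 and 0.09, and none passed the threshold.

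**Figure D4:**
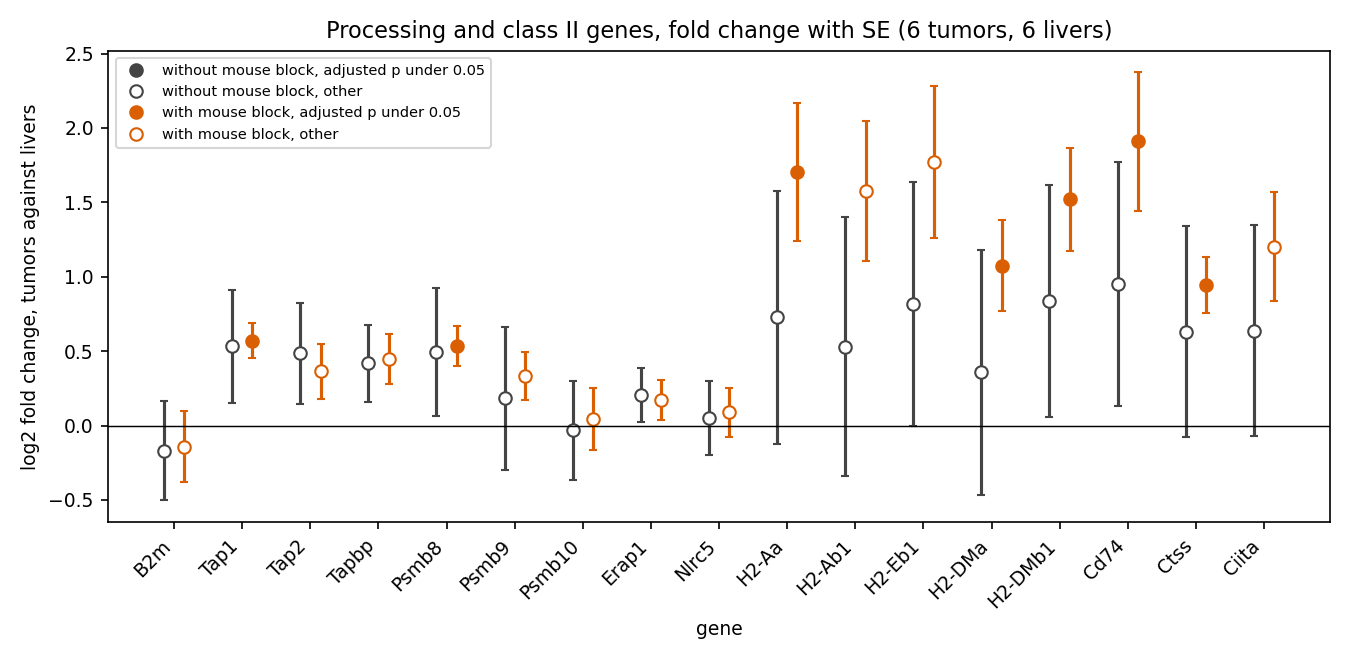
Log2 fold changes, tumors against livers, of B2m, class I processing genes, class II genes and the transactivators, as points with SE bars, fitted without (gray) and with (orange) the mouse as a block, filled where the adjusted p is under 0.05. Tap1, Psmb8, H2-Aa, H2-DMa, H2-DMb1, Cd74 and Ctss are filled with the block, and no gene shown is filled without it.

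The block also moved the counts of the driver classes. Against livers, the 4 tumors without a Ctnnb1 mutation had 7 members higher and 1 lower, where 10.5% of all genes rose and 10.2% fell. They were H2-Q2 with a log2 fold change of 2.83, H2-M2 with 2.55, H2-Q6 and the identical H2-Q8 with 0.90, Ctss with 0.76, Psmb8 with 0.61, Tap1 with 0.58 and, lower, H2-Ke6 with -0.93. In Ctnnb1-mutated tumors H2-Q7 and the identical H2-Q9 fell, with a log2 fold change of -1.60 (edgeR adjusted p = 0.0408), where 3.02% of all genes rose and 2.58% fell. H2-Q1 and H2-K2 were then at 4.85 and 1.35 with edgeR adjusted p of 0.0711 and 0.0765. Between Ctnnb1-mutated and other tumors no member was called by edgeR with the block, where 1.44% of all genes were higher and 1.46% lower, 10 of 43 members and 20% of all genes had an unadjusted p under 0.05, and the log2 difference of H2-Q1 was 4.19 (adjusted p = 0.179). DESeq2 without the block called 3 of 43 members higher and 7 lower, where 9.62% of all genes were higher and 10.9% lower.

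By genotype, 1 member rose in p21+/Tert tumors against p21+/Tert livers, H2-Q1, with a log2 fold change of 3.71 (SE 0.81, edgeR adjusted p = 0.0236), where 4.2% of all genes rose and 2.3% fell. Without the livers of T-HCC662, T-HCC941 or T-HCA992 its adjusted p was 0.073, 0.0728 and 0.0572. With the block 3 members rose, H2-DMb1, Tap1 and Ctss, with log2 fold changes of 1.84, 0.64 and 1.01, where 5.17% of all genes rose and 3.44% fell, and H2-Q1 was at 3.12 (edgeR adjusted p = 0.0702). In p21+/TertCi tumors against their livers no member passed edgeR's test, nor did any other gene (0%), with 2 mice. At an unadjusted p under 0.05 stood 1 of 43 members and 10.7% of all genes, and DESeq2 called no member, where 2.01% of all genes were higher and 0.454% lower. The difference between the genotypes in the tumor effect was also called for no member, with 0% of all genes. At an unadjusted p under 0.05 stood 1 of 43 members and 3.66% of all genes, and DESeq2 called no member, where 0.00659% of all genes were higher and 0.0593% lower. The member at an unadjusted p under 0.05 was H2-Q1, with a log2 difference of 4.33 (SE 1.34, edgeR adjusted p = 1). Both Ctnnb1-mutated tumors were p21+/Tert tumors, so driver class and genotype cannot be told apart for this gene in the genotype comparison.

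Of 27 further genes of the pathway, taken as a list of loading, proteasome, protease, regulator and class I-like genes, 1 rose and 2 fell in tumors against livers without the block. Of all genes tested, 6.77% rose and 3.91% fell in this comparison. Ctsd, an endosomal protease, rose with a log2 fold change of 0.62, and the transcription factor gene Irf2 and the lipid-presenting Cd1d1 fell by 0.89 and 0.92 on the log2 scale (edgeR adjusted p = 0.0335, 0.0168 and 0.0167). With the block Ctsd, the endosomal protease gene Lgmn and the transcription factor gene Irf8 were among those that rose, with log2 fold changes of 0.61, 0.99 and 0.99, and Irf2 and Cd1d1 fell. Of all genes, 8.64% rose and 7.29% fell with the block. In Ctnnb1-mutated tumors against livers Irf2 alone of the 27 passed, with a log2 fold change of -1.30, where 5% of all genes rose and 3.2% fell. In the other 4 tumors Mr1 and Ctsd rose and Psmb6, Irf2, Cd1d1, Fcgrt and Hfe fell, where 11.3% of all genes rose and 11.5% fell. In p21+/Tert tumors Irf2 and Cd1d1 fell, by 1.08 on the log2 scale each, where 4.2% of all genes rose and 2.3% fell. With the block, Ctsd and Psmb6 in the other 4 tumors and Irf2 in p21+/Tert tumors missed the threshold, with edgeR adjusted p of 0.0546, 0.0574 and 0.0517. Without the block, no gene of the 27 passed in the comparisons in which no member did.

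Between driver classes, 6.76% of all genes were higher and 5.72% lower in Ctnnb1-mutated than in other tumors. Of these 27 genes, 4 were higher and 1 was lower. The lower gene was Mr1, which presents vitamin metabolites to MAIT cells. It stood at 4.55 and 3.37 CPM in T-HCC662 and T-HCC663, at 12.4, 31.9, 25.3 and 7.95 CPM in T-HCC941, TCi-HCC981, T-HCA992 and TCi-HCA984, and at 3.18 to 8.99 CPM in livers. The Ctnnb1-mutated tumors lay below all other tumors, with a log2 difference of -2.28 (edgeR adjusted p = 0.0321), and of -2.09 (0.0337) with the block. The higher genes were the class I-like Fcgrt and Hfe, which carry immunoglobulin and regulate iron uptake, the proteasome subunit Psmb5 and the class II regulator Rfxap, with log2 differences of 1.02, 0.80, 0.69 and 0.98. None of these 4 passed with the block, where their edgeR adjusted p was 0.109, 0.151, 0.242 and 0.132. Fcgrt stood at 243 and 189 CPM in the Ctnnb1-mutated tumors, at 95.1 to 123 CPM in the other 4 tumors and at 152 to 192 CPM in livers.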

How the data were processed

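RNA-seq of 6 tumors and 6 non-tumoral livers was analysed from the raw counts per gene that the authors deposited. The authors aligned paired-end poly(A) reads with Subread to mm10 plus mCherry and counted them with featureCounts 1.6.4, per the labels and the study's methods. The annotation release, strand setting and handling of multiply mapping reads are not given in the sources used here, and the sequencing run for which the study corrected is not in the labels, so no run term was used. Counts were tested with edgeR 4.0.16 (TMM, filterByExpr, quasi-likelihood F test, Benjamini-Hochberg over all genes tested, threshold 0.05) in R 4.3.3. DESeq2 1.42.0, RLE size factors, every gene with a count, the mouse as a block and each library left out were alternatives. Leaving out the TCi-HCC981 mouse was added after seeing the data. Tumor and liver came from the same mouse. Their deviations from group means correlated with a median r of 0.317 over 13822 genes, against a median of -0.066 between mice. The values ran from 0.0416 in T-HCC941 and 0.0457 in T-HCC663 to 0.547 in both p21+/TertCi mice. With 2 mice in that genotype these 2 values are equal by construction, and centering on group means lowers r between mice. Members with values per library were chosen by role and each member past a threshold was named. The members and lists were chosen with earlier results of these data known. Similar transcripts were found with minimap2 2.31 in GENCODE M21, and promoters are those of RefSeq on GRCm38.p6. The edgeR steps were tested on simulated data. P-values without the block measure the spread between libraries within groups and treat tumor and liver of a mouse as independent. Those with the block measure the spread of the differences between tumors and their own livers. Among the further pathway genes, 1 gene is not reported here.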

Additional observations from a re-analysis of the deposited data

Results flagged for a closer look

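In 20 of 64 sets of 6 values tested (32 levels in livers and in tumors), a sample stood far from the others by Dixon's gap ratio, above 0.625. For normally distributed values chance gives about 1 in 20 sets. CPM were used here without a log scale, so that rate may not hold. All 20 were libraries of the TCi-HCC981 mouse, 13 of its liver and 7 of its tumor. The liver of TCi-HCC981 stood far above the other livers for H2-DMa at 49.4 CPM, H2-DMb1 at 30.5, H2-Ab1 at 404, H2-Aa at 383, H2-Eb1 at 295, H2-D1 at 2040, B2m at 4140, Tap1 at 132, Psmb9 at 82.2, Cd74 at 823, Nlrc5 at 97.0, Ctss at 138 and the summed class II chains at 1170 CPM. Its tumor stood far above the other tumors for H2-DMa at 44.9 CPM, H2-DMb1 at 35.1, H2-Ab1 at 353, H2-Aa at 394, Psmb9 at 73.2, Ctss at 181 and the summed class II chains at 1130 CPM. The levels share libraries and are not independent of each other.

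Levels differed between Ctnnb1-mutated and other tumors by edgeR's test for H2-Q1 with a log2 difference of 3.56, for H2-K2 with 1.81 and for H2-Ke6 with 0.89. Without the block this test compared tumor levels, not the change of each tumor from its own liver. None of these differences passed with the mouse as a block.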

How the results depend on the processing

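With the mouse as a replicate block, the number of members called was 9 in place of 2 for tumors against livers (where 15.9% of all genes were called), 8 in place of 2 for other tumors against livers (20.7%), 0 in place of 3 between Ctnnb1-mutated and other tumors (2.9%) and 3 in place of 1 for p21+/Tert tumors (8.61%). Without both TCi-HCC981 libraries the count was 1 for tumors against livers (7.91% of all genes), 1 for Ctnnb1-mutated tumors against livers (8.21%) and 1 between driver classes (6.07%). With the block as well it was 10 for tumors against livers (8.8%), 1 for Ctnnb1-mutated tumors (5.76%), 9 for other tumors (13.7%), 0 between driver classes (2.14%) and 0 for p21+/Tert tumors (5.91%). DESeq2 gave 4 for Ctnnb1-mutated tumors against livers (14%), 10 between driver classes (20.5%) and 2 for p21+/Tert tumors (13.9%). Testing every gene with a count gave 1 for tumors against livers (7.9%), and fitting only the libraries compared gave 0 between driver classes (5.68%). Leaving out 1 library gave 0 to 6, 1 to 4, 1 to 14, 0 to 5 and 0 to 2 members for tumors against livers, Ctnnb1-mutated tumors against livers, other tumors against livers, between driver classes and p21+/Tert tumors. The highest counts, 6 and 14, came without the liver of TCi-HCC981, where 11.6% and 24% of all genes were called. RLE size factors changed no call.

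Some members without a call changed sign. For tumors against livers, leaving out 1 library gave log2 fold changes from -0.40 to 1.94 for H2-DMa, -0.10 to 1.66 for Ctss, -0.18 to 0.19 for H2-D1, -0.34 to 0.13 for B2m, -0.18 to 0.78 for Psmb9, -0.19 to 0.23 for Psmb10, -0.093 to 0.29 for Nlrc5 and -0.048 to 2.16 for H2-Ab1, and for Ctss in other tumors from -0.13 to 1.63. Without the TCi-HCC981 mouse H2-D1 was at 0.061 and Psmb10 at 0.23, with the block added they were at 0.063 and 0.24, and Psmb10 was at 0.046 with the block alone. The cause was not tested.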
